A study of Anser cygnoides with 12 samples.

Results

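Genes of lipid digestion, fatty acid absorption and lipoprotein production were followed in the ileum of Yangzhou geese (Anser cygnoides) fed 3 diets. A list of 40 genes was set by name. Of these, 32 were rows of the expression table under that name, out of 19836 genes in all, and all 32 had enough reads to be tested. Another 3 were found through RefSeq's symbol for the table's gene ID: APOA1 and MTTP, which were tested, and SLC27A2, which was not. They are described but kept out of the counts. PNLIP, APOA5, CIDEB, PLIN3 and LIPA were found in neither way.

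The lactulose group received a diet with 21% crude protein and 0.3% lactulose, a disaccharide that the bird's own enzymes do not split. The high protein group received 21% crude protein without lactulose, and the control group a basal diet with 18% crude protein. Each diet had 4 libraries of polyadenylated RNA, numbered in the labels as replicates 2, 3, 5 and 6 for lactulose, 1, 3, 4 and 5 for high protein, and 3, 4, 6 and 7 for control. Values below follow that order. The labels do not say that replicates are separate birds, so each p-value measures the spread between these samples. The birds' age is not stated there either.

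Dietary triglyceride is cut in the gut lumen by lipases, and the released fatty acids and monoglycerides enter the absorptive cells, or enterocytes, of the villi. There they are bound by small carrier proteins, activated with coenzyme A and rebuilt into triglyceride. The microsomal transfer protein loads the triglyceride onto apolipoprotein B, and the particle leaves through the secretory pathway. Mammals send these particles into the lymph as chylomicrons, while birds release them into the portal blood as portomicrons. The ileum is the last stretch of the small intestine and also takes back bile acids.

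Levels are given as FPKM, fragments scaled to transcript length and to library size. They are per length and so can be set side by side between genes whose listed transcript is complete. Total counts were 39584113 to 45944497 in lactulose libraries, 42073193 to 46148575 in high protein libraries and 38706155 to 48251825 in control libraries. FABP6, the ileal bile acid carrier, had 621 to 3490 FPKM over the 12 libraries. A list of 20 enterocyte markers such as villin and brush border enzymes had 16 genes in the table, and their mean level differed widely within each diet. It was 7.39, 9.43, 9.47 and 8.23 on the log2 CPM scale (counts scaled to library size) in lactulose libraries, 9.19, 7.23, 8.55 and 8.69 in high protein libraries, and 9.17, 8.36, 7.08 and 9.22 in control libraries. In bulk tissue, fewer enterocytes and less RNA per enterocyte cannot be told apart. Lactulose replicates 3 and 5 were more alike (r = 0.983 across genes, on log2 CPM) than other pairs of the same diet (0.922 to 0.969). High protein replicate 1 held 4.07 FPKM of GATA4 and 6.91 of LCT, genes typical of the proximal intestine, against at most 0.0765 and 0.831 elsewhere. ONECUT2, another proximal gene, was also highest there (0.864 FPKM), while CCK was lowest there (27.3 FPKM). The 7 proximal markers in the table summed to 96.5 FPKM in that library, the lowest sum of all, and FABP6 was at its highest, 3490. Control replicate 3 held 49.2 FPKM of PLIN1, the coat protein of fat cell droplets, against at most 2.57 elsewhere. ADIPOQ, a fat cell hormone, was lowest in that library, at 20.1 FPKM against 27.9 to 95.6 elsewhere. The 6 fat cell markers in the table summed to 101 FPKM there and to 105 in lactulose replicate 2.

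**Figure D1:**
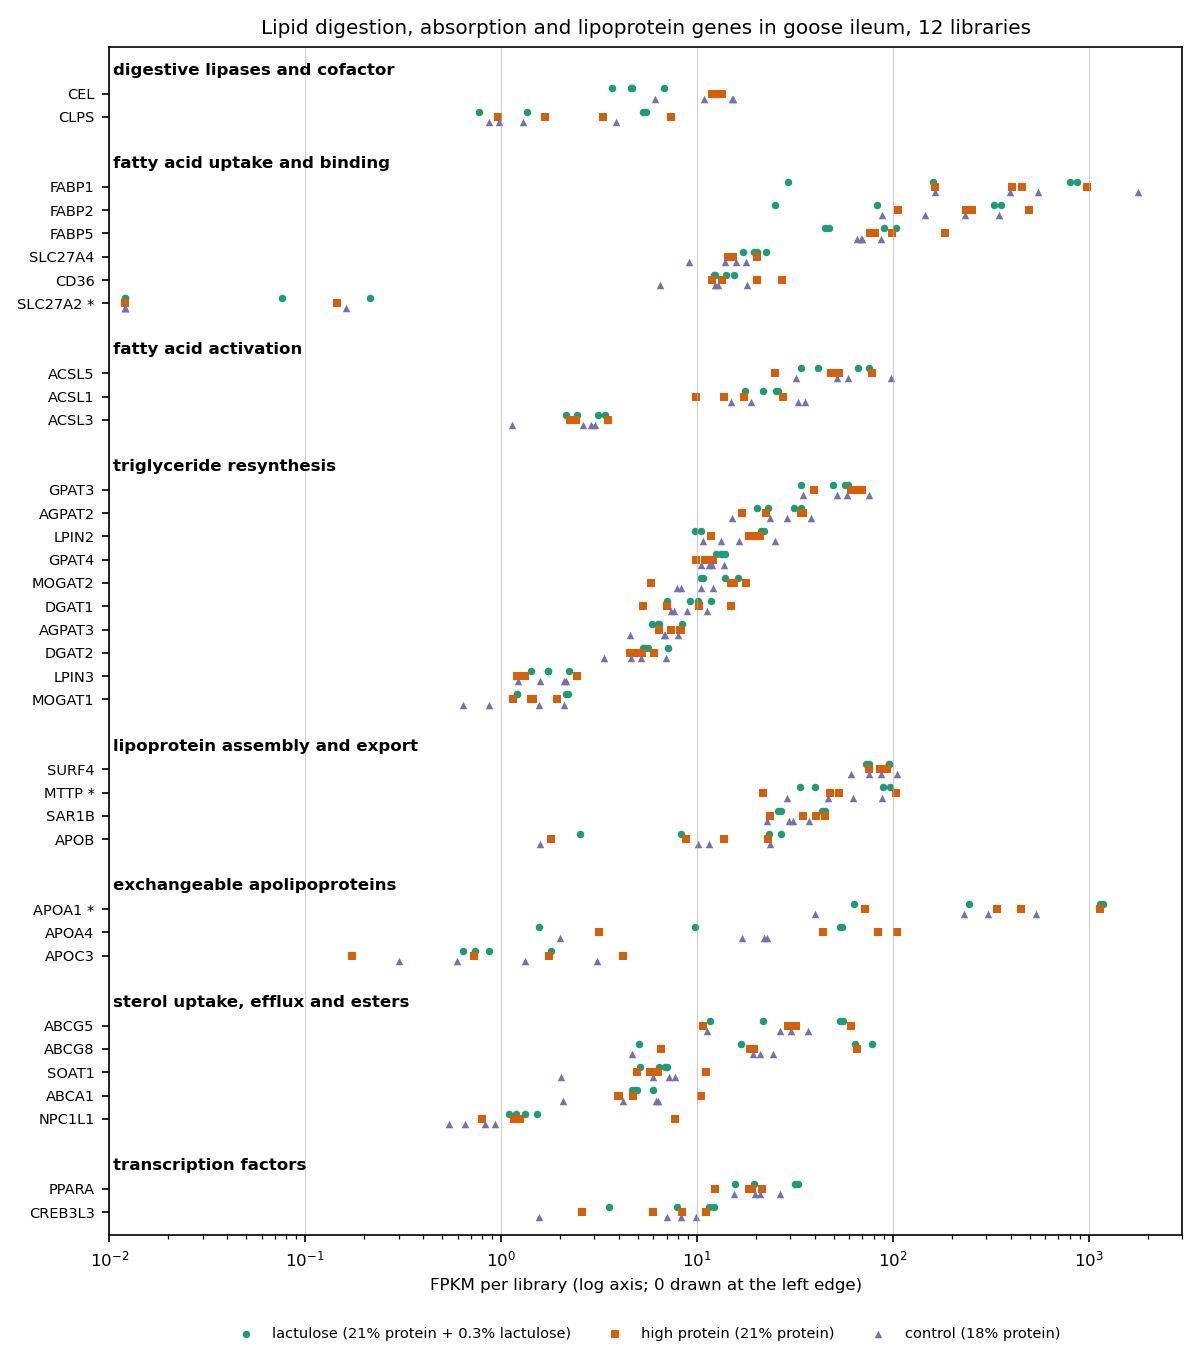
FPKM of each gene found, in every library, on a log axis, grouped by role, with lactulose, high protein and control libraries drawn as circles, squares and triangles. A star marks genes found through the gene ID. Levels run from the row matched to SLC27A2, near 0, to FABP1 at up to 1790 FPKM. Only CEL has all lactulose points below all high protein points.

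CEL, carboxyl ester lipase, is a bile salt-activated enzyme that cuts cholesteryl esters, retinyl esters and glycerides. It had the smallest p-value of the members in both comparisons with the lactulose diet. Its fall under lactulose was already known from these data when CEL was singled out. Its rank, calls and separation of diets are therefore no independent support for that fall. CEL had 6.82, 4.69, 4.62 and 3.70 FPKM in lactulose libraries, against 13.4, 12, 13.2 and 13 FPKM in high protein libraries and 10.9, 15.3, 15.2 and 6.09 FPKM in control libraries. All 4 lactulose libraries lay below all 4 high protein libraries, whereas control replicate 7 fell within the lactulose range. The means were 4.95 ± 1.32, 12.9 ± 0.621 and 11.9 ± 4.37 FPKM for lactulose, high protein and control (SD, n = 4 each). The gene is listed at NW_025927668.1, positions 7669600 to 7683690 on the plus strand, in an assembly whose build is not given in the sources used here.

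For lactulose against high protein, edgeR's quasi-likelihood test gave CEL a log2 fold change of -1.49 (SE 0.26, unadjusted p = 7.12e-05), with a Benjamini-Hochberg adjusted p of 0.572 over 16075 genes. In that comparison 0 genes passed by edgeR (0% of those tested), and 908 (5.65%) had an unadjusted p under 0.05. DESeq2 on the same genes called 18 (0.112%), CEL among them (log2 -1.48, adjusted p = 0.000324). Without control replicate 7, which enters only the estimate of the spread, edgeR's adjusted p was 0.0173. Of 21 alternatives, only DESeq2 and this omission changed the call, and the adjusted p lay between 0.000324 and 1 over all. For lactulose against control, edgeR gave -1.37 (SE 0.26, adjusted p = 0.725) and DESeq2 an adjusted p of 0.00229. Without control replicate 7, the control library within the lactulose range, the edgeR estimate was -1.60, with an adjusted p of 0.0148. Here too only these 2 of 21 alternatives changed the call. For high protein against control the estimate was 0.12 (SE 0.25, adjusted p = 1). The 2 lactulose comparisons share the lactulose libraries, so their estimates do not bear on CEL independently.

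CEL did not follow the enterocyte marker level: its slope, with diet held fixed, was -0.08 log2 units per log2 unit (SE 0.13, edgeR adjusted p = 0.767). With that level in the fit, the estimate for lactulose against high protein was -1.48 (SE 0.26). CEL is best known as a product of pancreatic acinar cells, and 9 of 22 acinar markers were in the table. Of these, 6 stayed under 1 FPKM in all libraries, and PTF1A was at 0 in all but 1 library. The 9 summed to 7.00 to 7.82 FPKM in lactulose, 5.44 to 7.57 in high protein and 5.23 to 8.83 in control libraries, most of it CUZD1 (3.70 to 7.20). Macrophages also make CEL in mammals. The 9 macrophage markers in the table summed to 265 to 381 FPKM in lactulose, 375 to 459 in high protein and 281 to 377 in control libraries. Of these markers, 6 had an unadjusted p under 0.05 on the lower side in lactulose against high protein, where 3.33% of all genes did. In lactulose against control 1 was lower and 1 higher at that threshold, where 3.94% and 2.26% of all genes were. In high protein against control 4 were higher and 0 lower, where 1.31% and 1.86% of all genes were. None passed the adjustment by edgeR. The part of macrophages in the CEL difference was not tested.

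**Figure D2:**
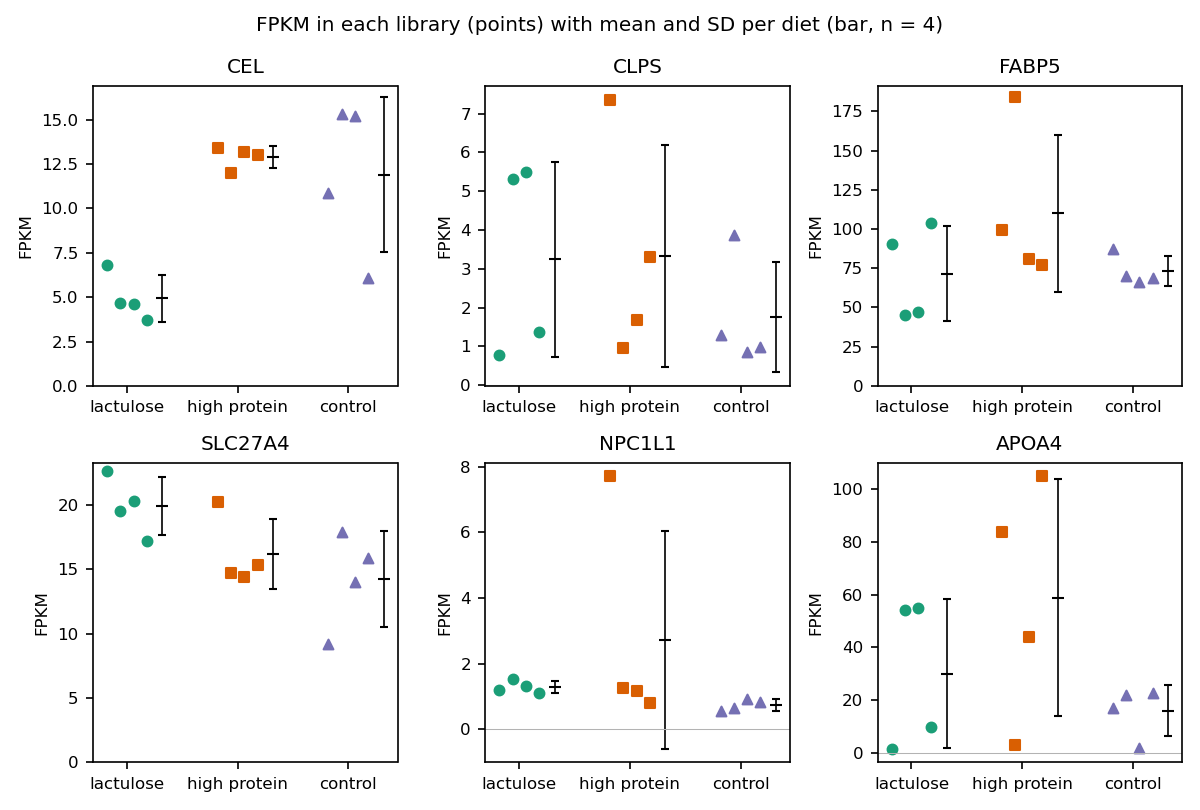
FPKM of CEL, CLPS, FABP5, SLC27A4, NPC1L1 and APOA4 in each library (points), with the mean and SD of each diet (bars, n = 4). The 4 lactulose points of CEL lie at 3.70 to 6.82 FPKM, below the high protein points at 12 to 13.4, and the NPC1L1 mean of the high protein diet is set by 1 library at 7.72.

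The other digestive gene, CLPS, encodes colipase, the cofactor that holds pancreatic lipase on a fat droplet coated with bile salts. It was at 0.769 to 5.50 FPKM in lactulose, 0.967 to 7.36 in high protein and 0.864 to 3.87 in control libraries. These ranges overlapped throughout (log2 -0.09 ± 0.76 SE for lactulose against high protein, edgeR adjusted p = 0.996). That error is too wide to tell whether CLPS shared the fall of CEL.

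Among the genes of fatty acid uptake and binding, FABP1, the liver-type fatty acid carrier, had the highest mean level of all genes found, at 565 FPKM over the 12 libraries. It had 29.1, 808, 874 and 160 FPKM in lactulose libraries, 980, 165, 459 and 408 in high protein libraries, and 1790, 398, 164 and 552 in control libraries. The diets overlapped, with control replicate 3 above all other libraries, and the SD within a diet was 343 to 725 FPKM. FABP2, the intestinal-type carrier, was at 25.2 to 357 FPKM in lactulose, 107 to 494 in high protein and 87.7 to 347 in control libraries. CD36, a membrane receptor for long-chain fatty acids, was steadier, at 12.2 to 15.4, 11.9 to 27.1 and 6.45 to 18.1 FPKM in lactulose, high protein and control libraries. The row matched to SLC27A2, a very long-chain acyl-CoA synthetase, was at 0 to 0.215 FPKM. Another row with that description, LOC106049619, was at 25.6 to 84 FPKM. Which of them stands for SLC27A2 in the goose was not settled.

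FABP5, the epidermal-type carrier, had 90.5, 45.1, 47.1 and 104 FPKM in lactulose libraries, 99.2, 184, 80.9 and 77.0 in high protein libraries, and 87.0, 70.0, 66.1 and 68.8 in control libraries. Only the like pair of lactulose replicates 3 and 5 lay below all other libraries, and high protein replicate 3 stood above all. The log2 fold change for lactulose against high protein was -0.71 (SE 0.31, unadjusted p = 0.0404, edgeR adjusted p = 0.845), and -0.42 without high protein replicate 3. SLC27A4, a fatty acid transport protein of the enterocyte with acyl-CoA synthetase activity, had 22.6, 19.5, 20.3 and 17.2 FPKM in lactulose libraries, 20.2, 14.7, 14.4 and 15.3 in high protein libraries, and 9.17, 17.9, 14.0 and 15.9 in control libraries. All lactulose libraries but replicate 6 exceeded every control library. Lactulose against control gave 0.41 (SE 0.16, unadjusted p = 0.0264, edgeR adjusted p = 0.771), with 0.32 to 0.51 when single libraries were left out.

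Long-chain acyl-CoA synthetases trap fatty acids in the cell as CoA esters. ACSL5, the most abundant of them here, had 34.0, 66.7, 75.5 and 41.6 FPKM in lactulose libraries, 78.2, 25.1, 48.6 and 53.5 in high protein libraries, and 59.2, 51.9, 32.2 and 98.1 in control libraries. The lowest library of each diet was the one with the lowest enterocyte marker level, and the diets overlapped. ACSL1 was at 17.7 to 25.9, 9.89 to 27.5 and 14.9 to 35.7 FPKM in lactulose, high protein and control libraries. ACSL3, a synthetase found on nascent lipid droplets, was at 2.15 to 3.38, 2.25 to 3.52 and 1.14 to 3.01 FPKM.

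Triglyceride is rebuilt either from monoglyceride by MOGAT enzymes or from glycerol phosphate by GPAT, AGPAT and lipin enzymes, and both routes end with a DGAT. GPAT3, AGPAT2 and LPIN2 of the glycerol phosphate route averaged 54.5, 26.9 and 16.6 FPKM over all libraries, and MOGAT2 averaged 12 FPKM. GPAT3 had 34.1, 57.2, 59.0 and 49.3 FPKM in lactulose libraries, 69.4, 39.7, 61.2 and 63.6 in high protein libraries, and 52.2, 58.5, 34.7 and 75.4 in control libraries. Its lowest library in each diet was again the one poorest in enterocyte markers. AGPAT2 averaged 27.2 ± 6.52, 27.2 ± 8.82 and 26.4 ± 9.58 FPKM in lactulose, high protein and control libraries (SD, n = 4 each). LPIN2, a phosphatidate phosphatase, averaged 15.9 ± 6.62, 17.6 ± 3.97 and 16.5 ± 6.31 FPKM. GPAT4 was the member that varied least, at 12.6 to 13.9 FPKM in lactulose, 9.95 to 12.1 in high protein and 10.5 to 13.7 in control libraries.

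All lactulose libraries exceeded all high protein libraries for GPAT4, by a small margin (log2 0.16 ± 0.14 SE, unadjusted p = 0.269, edgeR adjusted p = 0.908). MOGAT2, the main intestinal monoglyceride acyltransferase of mammals, was at 10.5 to 16.2, 5.80 to 17.9 and 7.94 to 12.1 FPKM in lactulose, high protein and control libraries. MOGAT1 was lower, at 1.21 to 2.19, 1.15 to 1.93 and 0.638 to 2.09 FPKM. Of the final acyltransferases, DGAT1 averaged 9.24 FPKM and DGAT2 5.36 FPKM over all libraries. DGAT1 is listed over a short stretch, positions 47423 to 48570, and DGAT2 over 1047213 to 1067971. Whether the DGAT1 row holds the whole gene was not tested, so the order of these 2 levels is uncertain. AGPAT3 averaged 6.98 FPKM, and LPIN3 1.70 FPKM.

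SURF4, a cargo receptor that helps lipoproteins leave the endoplasmic reticulum, had 75.6, 96.1, 95.5 and 72.9 FPKM in lactulose libraries, 93.5, 75.9, 91.7 and 86.4 in high protein libraries, and 61.6, 87.4, 75.9 and 105 in control libraries. It was the most abundant of the assembly and export genes, and its range over the 12 libraries was narrow. SAR1B, the small GTPase that starts the COPII coat and whose loss causes chylomicron retention in humans, was at 26.1 to 44.9, 23.7 to 44.9 and 22.9 to 37.5 FPKM in lactulose, high protein and control libraries. MTTP, the triglyceride transfer protein, was at 33.6 to 97.1, 21.7 to 104 and 28.8 to 88.3 FPKM. APOB, the backbone of the particle, was at 2.54 to 26.9, 1.81 to 23.2 and 1.58 to 23.7 FPKM. APOB thus spanned 17.0-fold over the libraries, against 1.70-fold for SURF4, with each diet covering nearly the whole span.

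APOA4, an apolipoprotein secreted by the intestine with fat absorption in mammals, had 1.57, 54.1, 54.8 and 9.79 FPKM in lactulose libraries, 83.9, 3.18, 44.1 and 105 in high protein libraries, and 17, 22, 2 and 22.8 in control libraries. It had the largest span of the 32 members, 66.5-fold, followed by FABP1 with 61.4-fold. High protein replicates 1 and 5 were higher than any other library, and 1 library of each diet was at or below 3.18 FPKM. APOA1, the main protein of high-density lipoprotein, had 63.4, 1150, 1190 and 244 FPKM in lactulose libraries, 1150, 72.1, 342 and 452 in high protein libraries, and 305, 231, 40.1 and 538 in control libraries. Its lowest libraries were the same as those of APOA4. APOC3, an inhibitor of lipoprotein clearance, was low, at 0.639 to 1.80, 0.173 to 4.22 and 0.303 to 3.10 FPKM in lactulose, high protein and control libraries.

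Sterol handling was led by ABCG5 and ABCG8, the paired half-transporters that pump plant sterols and cholesterol back into the lumen. ABCG5 had 11.7, 53.9, 56.0 and 21.7 FPKM in lactulose libraries, 61.4, 10.7, 29.3 and 32.1 in high protein libraries, and 36.8, 26.7, 11.3 and 30.3 in control libraries. ABCG8 was at 5.09 to 78.0, 6.54 to 66.0 and 4.68 to 24.6 FPKM in lactulose, high protein and control libraries, with the same lowest library in each diet as ABCG5. ABCA1, which loads cholesterol onto APOA1, averaged 5.20 FPKM, and SOAT1, which esterifies cholesterol, 6.38 FPKM.

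NPC1L1, the cholesterol importer of the brush border, had 1.20, 1.53, 1.32 and 1.10 FPKM in lactulose libraries, 7.72, 1.25, 1.16 and 0.799 in high protein libraries, and 0.540, 0.653, 0.927 and 0.83 in control libraries. Every lactulose library was above every control library (log2 0.73 ± 0.59 SE, unadjusted p = 0.241 by edgeR, not past the adjustment). High protein against control gave 1.91 (SE 0.61, unadjusted p = 0.00811, edgeR adjusted p = 1). This estimate rested on high protein replicate 1, the library with GATA4 and LCT, and was 0.53 without it. Whether the NPC1L1 level of that library goes with its GATA4 and LCT was not tested.

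The transcription factor PPARA, a receptor for fatty acids that drives their oxidation and binding genes, had 15.7, 31.6, 32.7 and 19.5 FPKM in lactulose libraries, 21.6, 12.4, 18.4 and 19.1 in high protein libraries, and 20.9, 26.5, 15.4 and 19.7 in control libraries. Lactulose replicates 3 and 5 were its highest libraries. CREB3L3, a membrane-bound factor that controls apolipoprotein genes in mouse liver and intestine, was at 3.57 to 12.3, 2.60 to 11.1 and 1.56 to 9.90 FPKM in lactulose, high protein and control libraries. Neither factor separated the diets.

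Over the 32 members, 0 passed in any diet comparison by edgeR's adjusted p, where 0% of all genes did. At an unadjusted p under 0.05, lactulose against high protein had 2 members (6.25%), CEL and FABP5, against 5.65% of all genes. Both were lower, as were 3.33% of all genes, while 2.31% were higher. Lactulose against control had 2 (6.25%), against 6.2% of all genes (997 of 16075). CEL was lower, as were 3.94% of all genes, and SLC27A4 higher, as were 2.26%. High protein against control had 1 (3.12%), against 3.17% of all genes (510 of 16075). This was NPC1L1, which was higher, as were 1.31% of all genes, while 1.86% were lower. The overall shares were close to those of all genes. DESeq2 called 1 member (CEL) in both lactulose comparisons, where it called 0.112% and 0.137% of genes, and 0 in high protein against control, where it called 0.0499%. It gave NPC1L1 no adjusted p in any diet comparison, so it could not call that gene.

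Groups whose FPKM values did not overlap were also few. In lactulose against high protein, GPAT4 was higher and CEL lower throughout, as were 4.71% and 1.79% of all genes. In lactulose against control, NPC1L1 was higher throughout (2.06% of all genes) and no member lower (1.15%). In high protein against control no member was separated in either direction, where 0.485% of all genes were higher and 0.958% lower. The median log2 fold change of the members was -0.10, 0.06 and 0.18 in the 3 comparisons in that order, and that of all genes 0.02, 0 and -0.02. The estimate was above 0 for 12 of 32 members in lactulose against high protein (52.8% of all genes), for 17 in lactulose against control (50.1%) and for 26 in high protein against control (46.2%). The median of high protein against control was 0.02 without high protein replicate 1. The one for lactulose against high protein ran from -0.27 to 0.07 as single libraries were left out. By limma on log2(FPKM + 1) it was -0.01, with 16 of 32 members above 0. That fit gave 0.17 for lactulose against control, with 23 of 32 above 0, and 0.15 for high protein against control, with 26. The calls of separated groups also rest on FPKM, which are scaled otherwise than the counts in edgeR.

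Member levels varied widely between libraries. The ratio of the highest to the lowest of all 12 libraries had a median of 3.76 for the 32 members. It was 2.44 for 14866 genes detected in every library. This ratio pools the 3 diets, so it also holds any difference between them. The ratio was over 5-fold for 12 members (37.5%), against 16.1% of those genes. To describe this spread, each gene's level was related to the enterocyte marker level with diet held fixed, giving a slope in log2 units per log2 unit. No member belongs to the marker list.

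By edgeR's adjusted p, 17 of the 32 members rose with the enterocyte marker level (53.1%), against 8.58% of all genes (1380 of 16075). None fell, against 4.52% of all genes. ABCA1 was called lower by DESeq2 (-0.33, adjusted p = 0.031), and MOGAT1 by edgeR without high protein replicate 3 (-0.44, adjusted p = 0.048). The median slope was 0.48 for the members and 0.01 for all genes. The steepest were APOA4 at 2.25 ± 0.30 (SE, adjusted p = 0.000681), APOB at 1.76 ± 0.13 (3.96e-05), FABP1 at 1.74 ± 0.25 (0.00101) and ABCG8 at 1.60 ± 0.16 (0.000121). These exceeded the median slope of the enterocyte markers, 0.92, which is largely set by construction because the markers make up that level. APOA1 and MTTP, kept out of the counts, had 1.96 ± 0.11 (5.79e-06) and 0.89 ± 0.10 (0.000211).

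**Figure D3:**
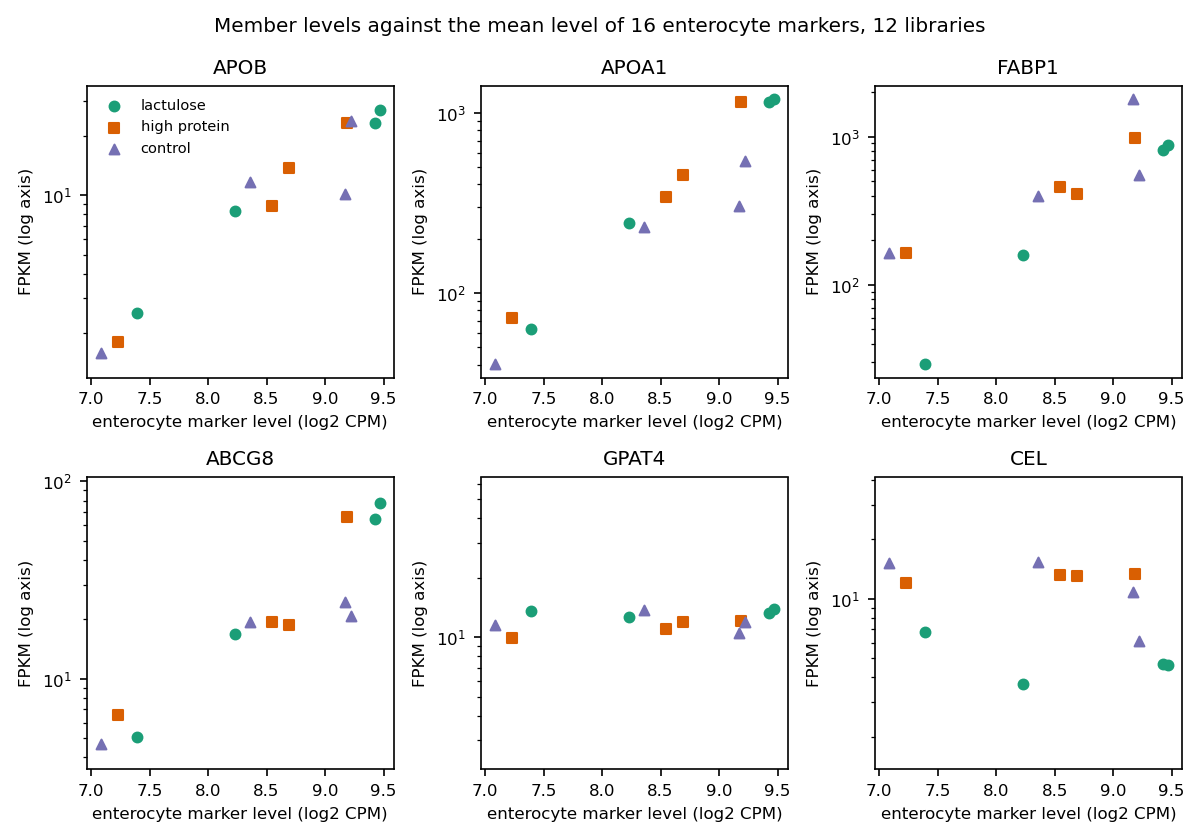
FPKM (log axis) of 6 genes against the mean log2 CPM of 16 enterocyte markers, in 12 libraries. APOB, APOA1, FABP1 and ABCG8 climb with the marker level in all 3 diets, GPAT4 stays between 9.95 and 13.9 FPKM, and the lactulose points of CEL lie at 3.70 to 6.82 FPKM at low and high marker levels alike.

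By role, the slope passed for all 3 assembly and export genes counted (APOB, SAR1B at 0.47 and SURF4 at 0.25), for both transcription factors (CREB3L3 at 1.11, PPARA at 0.49) and for 2 of 3 synthetases (ACSL5 at 0.75, ACSL1 at 0.53). It passed for 2 of 5 uptake and binding genes, FABP1 and FABP2 (1.34). Of the 10 triglyceride genes, 4 passed, with slopes of 0.51 to 0.60. These were LPIN2, AGPAT2, MOGAT2 and GPAT3. Of the sterol genes, 2 of 5 passed, ABCG8 and ABCG5 (1.12). The slope of CLPS, 1.14 ± 0.30, passed with an edgeR adjusted p of 0.0292. That call was lost without lactulose replicate 2 (1.04, adjusted p = 0.138), 3 (1.10, 0.0625), 5 (1.09, 0.0652) or 6 (1.11, 0.0596), without high protein replicate 1 (1.02, 0.0662) or 3 (1.08, 0.102), and without control replicate 6 (1.23, 0.0843). It was also lost with lactulose replicates 3 and 5 counted as 1 sample (1.10, 0.0627). SURF4 did not pass without lactulose replicate 2 (0.23, 0.0862), high protein replicate 3 (0.24, 0.0597) or control replicate 6 (0.26, 0.0753), nor ACSL1 without control replicate 6 (0.46, 0.113).

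Of the members that did not pass, APOC3 had the largest slope, 1.22 ± 0.39 (edgeR adjusted p = 0.062). DGAT1 had 0.42, NPC1L1 0.40, CD36 0.16, GPAT4 0.16, SOAT1 0.12, SLC27A4 0.11 and DGAT2 0.01. Slopes below 0 were those of AGPAT3 (-0.03), CEL (-0.08), LPIN3 (-0.16), ACSL3 (-0.19), FABP5 (-0.21), MOGAT1 (-0.31) and ABCA1 (-0.32). Estimates also varied between relatives of the same gene family: GPAT3 at 0.51 and GPAT4 at 0.16, MOGAT2 at 0.52 and MOGAT1 at -0.31, ACSL5 at 0.75 and ACSL3 at -0.19, FABP1 at 1.74 and FABP5 at -0.21. The differences between paired slopes were not tested.

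**Figure D4:**
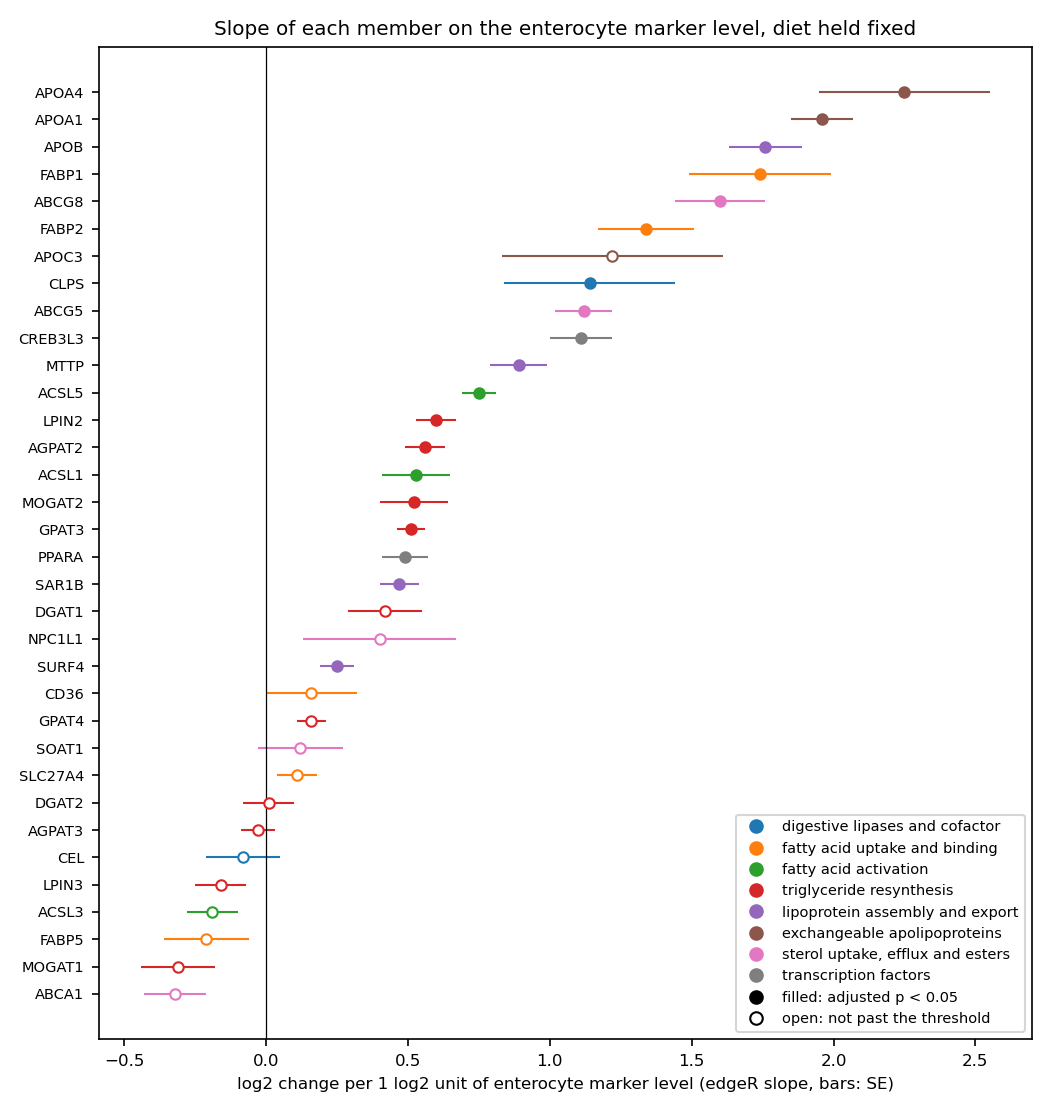
edgeR slope of each gene on the enterocyte marker level, with diet held fixed (point, with SE bar), coloured by role. Filled points passed an adjusted p of 0.05, and they run from SURF4 at 0.25 to APOA4 at 2.25.

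The count of 17 members was 14 to 20 when single libraries were left out, 14 without control replicate 6. Over all genes the count of slopes in either direction was 2107 (13.1%), and 896 without control replicate 6, 1087 without lactulose replicate 2, 1310 without lactulose replicate 3 or 5, and 1360 without high protein replicate 3. Smooth muscle markers went the other way: 6 of 10 fell with the enterocyte level by edgeR's adjusted p, where 4.52% of all genes fell. Their sum was 2570 to 7230 FPKM in lactulose, 3050 to 5470 in high protein and 2320 to 4720 in control libraries. Of the endothelium markers, 4 of 10 fell by the same test. How much muscle or villus a piece of tissue held was not measured separately.

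Some members lie side by side in the table's assembly. APOA1, APOC3 and APOA4 follow each other on 1 scaffold, with 571 and 737 bases between them, and had slopes of 1.96, 1.22 and 2.25. ABCG8 and ABCG5 point away from each other with 6 bases between their listed ends, and had 1.60 and 1.12. DGAT2 and MOGAT2 lie 17189 bases apart and had 0.01 and 0.52, and MOGAT1 and ACSL3, 23449 bases apart, had -0.31 and -0.19. Whether the counting used the strand is not given in the sources used here, so levels of such close neighbours carry that uncertainty.

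With the enterocyte level as a term beside the diet, the standard errors of the members that follow it became smaller. The diet estimates could then be read at equal marker level. That level leaned higher under lactulose, at a mean of 8.63 ± 1.01, against 8.41 ± 0.84 in high protein and 8.46 ± 1 in control libraries (SD). These differences were small beside the SD. The markers had a median log2 fold change of 0.44 against high protein (14 of 16 above 0, 52.8% of all genes). Against control it was 0.25 (12 of 16, 50.1% of all genes). By edgeR, 0 of the 16 had an unadjusted p under 0.05 in either comparison. The markers vary together, so their signs are not independent. For a gene that rises with the level, a higher level under lactulose moves the lactulose estimate down. How far it shaped the estimates below was not tested. By edgeR, 0% of all genes and 0 members passed the adjusted threshold in any comparison. For lactulose against high protein, 7 members (21.9%) had an unadjusted p under 0.05, against 8.28% of all genes. All 7 were lower, as were 4.83% of all genes, while 3.45% were higher. Besides CEL these were APOA4 at -1.90 ± 0.48 (SE), FABP2 at -1.24 ± 0.34, FABP1 at -1.21 ± 0.47, FABP5 at -0.66 ± 0.29, and GPAT3 and LPIN2 at -0.43 each. Their adjusted p-values lay between 0.212 and 0.596, and 23 of 32 members had an estimate below 0, with a median of -0.20 against 0.01 for all genes.

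For lactulose against control in this fit, 6 members (18.8%) had an unadjusted p under 0.05, against 10.7% of all genes. Of these 5 were lower (5.94% of all genes) and 1 higher (4.8%). The lower ones were FABP1 at -1.59 ± 0.47 (SE), CEL at -1.35 ± 0.26, FABP2 at -0.87 ± 0.34, ACSL5 at -0.35 ± 0.12 and GPAT3 at -0.31 ± 0.10, and the higher one SLC27A4 at 0.39 ± 0.15. Their edgeR adjusted p-values lay between 0.264 and 0.443. For high protein against control, 3 members had an unadjusted p under 0.05 (5.47% of all genes). Of these 2 were higher (2.61% of all genes), APOA4 at 1.61 ± 0.48 and NPC1L1 at 1.71 ± 0.59, and 1 lower (2.86%), ACSL1 at -0.54 ± 0.25, with adjusted p-values between 0.751 and 0.904. The estimates of FABP1 and FABP2 were thus below 0 in both lactulose comparisons of this fit, without passing the adjustment. With diet alone, against high protein and control, they were -0.15 and -0.85 (SE 0.98 each) for FABP1. For FABP2 they were -0.51 and -0.19 (SE 0.77 each), and the diets overlapped for both genes. Both genes rise with the marker level, so the limit given above on lactulose estimates applies to them. The 2 comparisons also share the lactulose libraries. APOA1, outside the counts, was at 0.48 ± 0.19 in lactulose against control (SE, unadjusted p = 0.0252, edgeR adjusted p = 0.443). In high protein against control it was at 0.82 ± 0.19 (unadjusted p = 0.000927, edgeR adjusted p = 0.715).

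**Figure D5:**
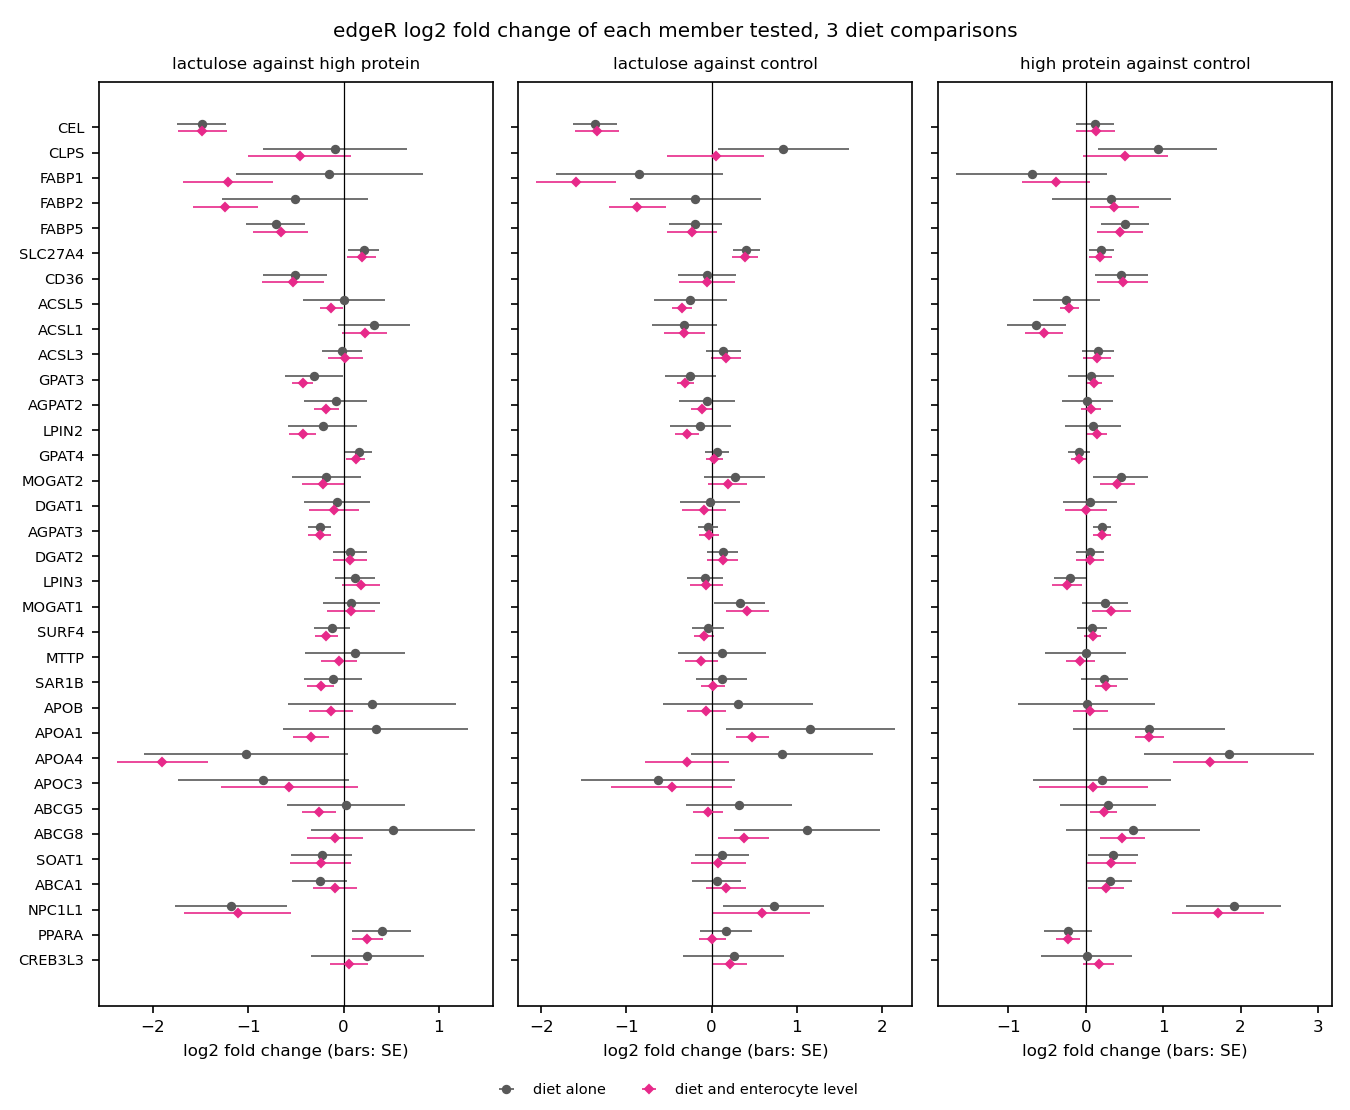
edgeR log2 fold change of each gene in the 3 diet comparisons (point, with SE bar), with diet alone (circles) and with the enterocyte marker level added (diamonds). The bars of APOB, APOA1 and ABCG8 are shorter with the added term, and CEL stays at -1.49 and -1.48 in lactulose against high protein.

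Other genes of lipid handling, taken from 6 lists, were set beside the members. In each of the 3 diet comparisons 0 of them passed by edgeR's adjusted p. With the enterocyte level, 8.58% of all genes rose and 4.52% fell. Of the other lipases, 4 of 9 tested rose with the enterocyte level and 0 fell: PLB1, the brush border phospholipase, at 2.08, PLA2G1B at 1.06, PLA2G12B at 0.93 and LIPI at 0.38. Of the other uptake and acyltransferase genes, FABP6 (1.11) and LPCAT3 (0.21) rose and ACSL6 and SLC27A3 (both -0.32) fell, out of 17. Of the lipid droplet genes, 0 of 9 rose and MGLL, a monoglyceride lipase, fell (-0.28). Of the COPII and large cargo genes, 6 of 18 rose and 0 fell: TMEM41B at 0.60, SEC24A at 0.31, VMP1 at 0.29, P4HB at 0.25, MIA2 at 0.23 and SEC13 at 0.17.

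Fatty acid oxidation had 9 of 22 genes rising and 0 falling, where 8.58% of all genes rose and 4.52% fell, all 9 with slopes below those of the apolipoproteins. Among them were EHHADH at 0.48, CPT1A and ACADL at 0.47 each, ACAA1 at 0.39, HADH at 0.35, SLC25A20 at 0.31, ETFA at 0.23 and ACADM at 0.22. Of the regulators, 6 of 18 rose and 0 fell, among them MLXIPL at 0.81, HNF4A at 0.78, HNF4G at 0.28 and NR1H3 at 0.27. HNF4A, a master regulator of enterocyte genes, had an adjusted p of 3.96e-05.

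By diet, the smallest p-values of these lists in lactulose against high protein were those of FABP7, a brain-type carrier, and SLC27A1, a fatty acid transporter. FABP7 averaged 27.5 ± 7.93 FPKM in lactulose, 49.2 ± 2.55 in high protein and 44.4 ± 21.9 in control libraries (SD, n = 4 each), with a log2 fold change of -0.94 (SE 0.35, unadjusted p = 0.0182, edgeR adjusted p = 0.845) against high protein. SLC27A1 gave -0.41 (SE 0.16, edgeR adjusted p = 0.845). In the other lists the smallest p-values included those of DAGLA (0.50) and LIPG (-0.39), ABHD5 (-0.24) and CIDEC (-0.92), PREB (0.22) and SEC13 (-0.17), ECI2 (-0.43) and ECI1 (-0.30), and PPARGC1B (0.23), with edgeR adjusted p-values of 0.845 to 0.912. None of these reached an unadjusted p under 0.05.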

How the data were processed

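Poly(A) RNA from goose ileum was sequenced in 12 libraries. Per the labels' protocols, a kit that marks the strand was used with paired reads. The submitters' processing notes list the aligner HISAT2 2.2.1, the assembler StringTie 2.1.6, the trimmer cutadapt 1.9, and edgeR and DESeq2, without saying where each was used. Neither the genome build nor the strand setting of the counting is given in the sources used here. The authors deposited 1 table of 19836 genes on 860 scaffolds, holding for every gene and library its raw count and its FPKM, per the file headers. The table held 0 columns of other samples. A count of 4 occurs 5063 times, against 1799 times for 3 and 1526 times for 5, so a read pair may stand for about 4 counts. Counting error may then exceed what the counts alone give.

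Counts were tested with edgeR 4.0.16 in R 4.3.3 (quasi-likelihood, TMM scaling, filterByExpr with a minimum count of 10), two-sided, on a model of diet alone that leaves 9 residual degrees of freedom. Benjamini-Hochberg adjustment ran over 16075 genes, with a threshold of 0.05. Fold changes are the first-named diet over the second. Each standard error is the absolute log2 change divided by the square root of the quasi-likelihood F. The slope fit adds the mean log2 CPM (prior count 2) of 16 of 20 enterocyte markers and has 8 residual degrees of freedom. Alternatives were DESeq2 1.42.0, another scaling, no filter, limma 3.58.1 on log2(FPKM + 1) and log2(FPKM + 0.1) for genes with a mean of at least 0.1 FPKM, counts divided by 4, each library left out, the replicate number as a block, and lactulose 3 and 5 as 1 sample. A marker level from brush border and adhesion genes alone was added after the data were seen. The code was tested on simulated counts.

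Of the gene IDs, 17685 matched RefSeq's table of the Taihu goose assembly and 2151 did not. It was used for symbols only. The members and lists were chosen with earlier results of these data known. Named in full are CEL, members with an unadjusted p under 0.05 in a diet comparison, and the most abundant member of each role; of other lists, genes past the threshold and the 2 of smallest p in lactulose against high protein. A few genes that this rule or the marker lists would name are not reported here, while counts over lists include them.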

Additional observations from a re-analysis of the deposited data

Results flagged for a closer look

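In each diet, the libraries of the 32 members and of APOA1 and MTTP were searched for 1 library far from the other 3, by the gap to its nearest neighbour over the whole range (Dixon's 95% limit for 4 samples). Of 102 such groups 7 stood out, and for normally distributed values chance gives about 1 in 20, so the count is near that share. All 7 lay on the high side. The search used FPKM without a log, so this chance share may not hold. High protein replicate 1 was high for NPC1L1, the cholesterol importer, at 7.72 FPKM against 0.799 to 1.25 in the other 3, and for SLC27A4, the fatty acid transport protein, at 20.2 against 14.4 to 15.3. High protein replicate 3, which had the lowest enterocyte marker level of its diet, was high for ABCA1, the cholesterol exporter, at 10.5 against 3.96 to 4.73, for LPIN3 at 2.45 against 1.21 to 1.33, and for ACSL3 at 3.52 against 2.25 to 2.42. Control replicate 4 was high for CLPS, colipase, at 3.87 against 0.864 to 1.29. Lactulose replicate 2, the lactulose library poorest in enterocyte markers, was high for DGAT2 at 7.09 against 5.33 to 5.63.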

How the results depend on the processing

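DESeq2 called 18, 22 and 8 genes for lactulose against high protein, lactulose against control and high protein against control, where edgeR called 0. It called 1 member, CEL, in the first 2 (CEL at -1.48 against high protein). Without a filter on low counts, and with limma at either pseudocount, 1 gene was called in lactulose against control and 1 in high protein against control. With 1 library left out, each comparison had 0 to 1 genes, members called were 0 to 1 in both lactulose comparisons, and CEL against high protein ranged from -1.62 to -1.37. For slopes on the enterocyte level, leaving out 1 library gave 896 to 2746 genes and 14 to 20 members. Lactulose 3 and 5 as 1 sample gave 1312 genes and 16 members, and DESeq2 21 members, 20 higher and 1 lower (ABCA1). Without high protein replicate 3, 15 members were called higher and 1 lower (MOGAT1). Deviations of 6 same-numbered pairs correlated at -0.133 to 0.196, and 3 were over 0.1. So few pairs could not settle whether replicate numbers pair the samples. With a replicate block, which leaves the slope fit few degrees of freedom, 0 genes and 0 members passed, while the members' median slope was 0.45 against 0.48 without it, with 23 of 32 slopes above 0. Slopes that had not passed changed sign: with the block CEL at 0.09, NPC1L1 at -0.10, SLC27A4 at -0.11 and SOAT1 at -0.48, and with 1 library left out CEL (-0.15 to 0.02) and DGAT2 (-0.06 to 0.04). The cause was not tested. Members' medians under the block were 0.41 and 0.20 for the lactulose comparisons, against high protein first, and -0.13 for high protein against control.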

Other observations

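Rows with only a LOC name were searched, after the data were seen, for descriptions that name pancreatic lipase-related protein, lysosomal acid lipase, perilipin-3 or very long-chain acyl-CoA synthetase. Of 11 such rows, 6 stayed under 1 FPKM in every library. LOC106045208, described as a pancreatic lipase-related protein, averaged 16.3 ± 11.1 FPKM in lactulose, 29.2 ± 23.5 in high protein and 28.2 ± 12.1 in control libraries (SD, n = 4 each), and rose with the enterocyte marker level (slope 1.23 ± 0.16 SE, edgeR adjusted p = 0.000572). LOC106049619 is described as a very long-chain acyl-CoA synthetase, as is the row matched to SLC27A2. It averaged 64.3 ± 20.5, 45.4 ± 15.8 and 47.6 ± 14.7 FPKM in the same order. It also rose with that level (0.64 ± 0.07, edgeR adjusted p = 0.000211). LOC106029986, described as a lysosomal acid lipase, was steady at 43.5 to 66.7 FPKM (slope 0.15 ± 0.10, adjusted p = 0.395). LOC106044932, described as perilipin-3, was at 14.1 to 86.4 FPKM, with a mean of 23.6 ± 2.2 in lactulose, 25.1 ± 12 in high protein and 37.8 ± 32.6 in control libraries. None of these rows passed edgeR's adjusted test in a diet comparison.

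In control replicate 3, some fat cell genes were high together: PLIN1 was at 49.2 FPKM, LPL, the lipase of the vessel wall, at 15.6 and CIDEC, a droplet fusion protein, at 13.5. ADIPOQ, the defining hormone of fat cells, was at 20.1 FPKM there, below every other library (27.9 to 95.6). PLIN1 averaged 1.64 ± 0.717 FPKM in lactulose, 0.685 ± 0.175 in high protein and 13.1 ± 24.1 in control libraries, so its estimate for high protein against control (log2 -4.57, SE 1.39, edgeR adjusted p = 1) rests on that library.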
